A study of Mus musculus with 14 samples.

Results

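A set of 8 genes is described here across cultured cochlear supporting cells (SCs), namely *Fabp7*, *Slc1a3*, *Ngfr*, *Npy*, *S100a1*, *Ccbe1*, *Rasd1* and *Rasd2*. They were taken by name, as listed markers of inner phalangeal cells (IPhCs), pillar cells (PCs), Deiters' cells (DCs) and transitional Deiters' cells (tDCs), and all 8 had a row among the 35976 genes counted. The choice was made with earlier results of these data known. Bulk RNA-seq was made from GFP-positive cells sorted from cochleae of Lfng-EGFP mice. The cochleae, labelled P0 or P6 (the younger ones were dissected at P0 to P1), had been cultured for 24 h with 2 μM of the γ-secretase inhibitor compound E (CompE), which blocks cleavage of Notch receptors, or with an equal volume of its solvent, DMSO. There were 4 libraries of each treatment at P0 and 3 of each at P6, 14 in all, and each was made from cells pooled from several cochleae. All groups carried the Lfng-EGFP transgene. *Lfng* is itself a Notch-responsive gene, and the mean level of its own mRNA was 912 RPM with CompE against 2791 RPM with DMSO at P0 (log2 fold change -1.67, edgeR adjusted p = 0.0241). The level of the EGFP used for the sort was not measured here, and its part in the results below was not tested.

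The organ of Corti, the sensory epithelium of the cochlea, holds one row of inner and several rows of outer hair cells (HCs), each contacted by its own SC type. DCs hold the outer HCs, PCs form the tunnel between inner and outer HCs, and IPhCs together with border cells (BCs) surround the inner HCs. HCs present Notch ligands to the SCs around them, and Notch signalling there keeps SCs from becoming HCs. When it is blocked in the neonatal cochlea, some SCs, chiefly DCs, start to express HC genes, and cells caught on that path are called tDCs.

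The levels are given as RPM, the count of a gene scaled to 1000000 counts in its library. The libraries held 19415066 to 44430063 counts. The PC list was abundant in every library, led by *Tectb*, a tectorial membrane protein, at group means of 7866 to 16186 RPM, and the pan-SC list summed to 5421 to 5796 RPM with CompE and 6844 to 11587 RPM with DMSO at P0, without overlap. Of the 9 pan-SC genes, 8 had a log2 fold change below 0 at P0 (median -0.47), 0 passed by edgeR and 2 with the replicate as a block (*Jag1* and *Lfng*), and the part of this list's shift in the member results was not tested. At P6 the pan-SC list summed to 5148 to 7111 RPM with CompE and 6493 to 9659 RPM with DMSO, lower with CompE in each pair. There 8 of its 9 genes had a log2 fold change below 0 (median -0.52). In the PC list, *Ngfr* and *Npy* included, 8 of 8 were below 0 at P6 (median -0.63). None of these genes passed at P6, and the part of these shifts in the member results was not tested. HC markers summed to 1141 to 1748 RPM with CompE and to 595 to 1264 RPM with DMSO at P0, and to 427 to 1262 RPM over the P6 libraries. Mesenchyme markers summed to 1211 to 1352 RPM with CompE and 935 to 1146 RPM with DMSO at P0, without overlap, though 6 of the 7 genes had a log2 fold change below 0 and *Lum*, the most abundant, had one of 0.43 (adjusted p = 0.109). They reached 3363 and 4063 RPM in both P6 libraries of batch 6. The same 2 libraries held the most immune marker counts, with sums of 77.2 and 32.6 RPM against at most 10.1 RPM in any other library. In bulk samples such as these, fewer cells of a type and less RNA per cell cannot be told apart.

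The promoters of *Fabp7* and *Ngfr* are shown because both genes were lower with CompE in every pair of libraries, and because they were the only ones of 6 members with a RefSeq promoter entry to hold any of the motifs searched. A set of 5 motifs was searched on both strands in the window from 250 bases before to 50 bases after each start site, with overlapping matches allowed. These were TGGGAA, the core bound by RBPJ, the DNA-binding partner of Notch; CACGTG and CACGCG, bound by Hes and Hey repressors; and the E-boxes CAGCTG and CAGATG. The 250 bases upstream of the start site are printed in the direction of transcription (RefSeq, GRCm38.p6), with the motif letters in capitals. They are chr10:57784673-57784922 on the plus strand for *Fabp7* and chr11:95587699-95587948 on the minus strand for *Ngfr*.
Fabp7: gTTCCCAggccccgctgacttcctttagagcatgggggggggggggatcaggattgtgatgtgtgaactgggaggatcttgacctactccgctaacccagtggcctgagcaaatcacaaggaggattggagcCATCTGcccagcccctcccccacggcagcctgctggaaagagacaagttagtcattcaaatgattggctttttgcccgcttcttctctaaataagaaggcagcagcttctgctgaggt
Ngfr: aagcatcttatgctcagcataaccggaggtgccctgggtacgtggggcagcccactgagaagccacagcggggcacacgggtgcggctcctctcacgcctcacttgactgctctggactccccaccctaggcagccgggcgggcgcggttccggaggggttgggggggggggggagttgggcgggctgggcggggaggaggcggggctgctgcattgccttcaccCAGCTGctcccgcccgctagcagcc
The *Fabp7* window held the RBPJ core at position -249 and the E-box CAGATG at position -118, both as the reverse complement. The *Ngfr* window held the E-box CAGCTG at position -25. Over all 32851 promoters in the same table, 25.6% held TGGGAA, 17.2% held CAGATG and 16.3% held CAGCTG, so these matches are common. CACGTG, held by 7.15% of promoters, and CACGCG, held by 9.27%, were in none of the 6 windows. *Slc1a3*, *Npy*, *S100a1* and *Rasd2* held none of the 5 motifs in this window.

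Levels of different genes were compared per length, as RPM per kb of exon (GENCODE M21). In DMSO at P0, *S100a1* was highest at 2025 ± 206 (SD, n = 4). *Npy* followed at 311.6 ± 279.5, *Fabp7* at 155.6 ± 80.8, *Rasd2* at 61.8 ± 31.9 and *Slc1a3* at 48.9 ± 7.90, and each of these overlapped its neighbour in the order over the libraries. *Rasd1* at 5.51 ± 1.16 and *Ngfr* at 4.26 ± 0.991 also overlapped each other, and *Ccbe1* was last at 0.0581 ± 0.0313. With CompE at P0, *Fabp7* moved from the third to the sixth place, at 15.4 ± 4.15, below *Rasd1* at 19.5 ± 4.80, whose range it overlapped. At P6 in DMSO, *Fabp7* was second at 327.7 ± 229.6 (n = 3). *S100a1* stayed first and *Ccbe1* last in all 4 groups, in each case without overlap with the next gene.

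**Figure D1:**
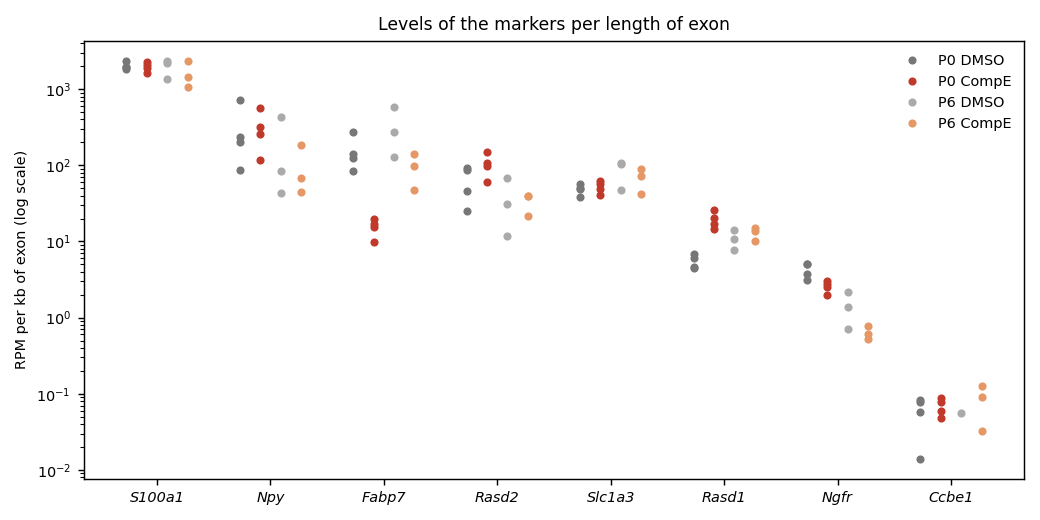
RPM per kb of exon on a log axis for the 8 markers, ordered by their mean in DMSO at P0, with each point a library and each colour a group (2 P6 DMSO libraries at 0 for Ccbe1 cannot be drawn on this axis). S100a1 lies between 1082 and 2366 in every library, and Fabp7 in CompE at P0 lies between 9.89 and 19.8, below its other points.

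With CompE at P0, 2 of the 8 markers differed from DMSO past the threshold used (2-fold or more in size, with an adjusted p no higher than 0.01 by edgeR's quasi-likelihood test, 4 against 4 libraries). *Fabp7* fell and *Rasd1* rose. Among all 15937 genes tested, 195 passed, which is 1.22%, with 38 higher and 157 lower. Libraries of both treatments did not overlap for 3 of 8 members (*Fabp7*, *Ngfr* and *Rasd1*), against 9.88% of all genes. As the members were chosen with earlier results of these data known, these shares do not test the set. The median log2 fold change of the members was 0.01, and that of all genes 0.01, since the members moved in both directions or stayed near 0.

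*Fabp7* (ENSMUSG00000019874.11, chr10:57784881-57788450, plus strand, GRCm38) encodes brain lipid-binding protein, a carrier of fatty acids that marks radial glia, where it is a direct target of Notch signalling, and IPhCs and BCs in the cochlea. In DMSO at P0 it was at 106.6, 339.2, 154.5 and 177.6 RPM in replicates 1 to 4. With CompE it was at 12.4, 24.8, 20.9 and 19.2 RPM. Every CompE library thus lay far below the lowest DMSO library, and the ratio within a pair of equal replicate number lay between 0.0730 and 0.135. This gave a log2 fold change of -3.38 (SE 0.392, 95% interval -4.26 to -2.51, edgeR adjusted p = 0.00138). The call held without any single library, with adjusted p between 0.000869 and 0.00974, and was lost when both libraries of replicate 3 (adjusted p = 0.0183) or of replicate 4 (0.0314) were left out, with log2 fold changes between -3.61 and -2.95 under all of these.

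At P6, *Fabp7* was at 344.2, 723.7 and 161.0 RPM in DMSO, and at 123.8, 174.5 and 58.6 RPM with CompE. It was lower with CompE in 3 of 3 pairs, by ratios of 0.360, 0.241 and 0.364, but the treatments overlapped because batch 6 was low for both. Its log2 fold change was -1.78 (SE 0.623, 95% interval -3.24 to -0.31) and did not pass (edgeR adjusted p = 1). Replicate numbers pair the libraries, and with the replicate as a block the value was -1.65 (SE 0.142, edgeR adjusted p = 0.113). DESeq2 with the same block, added after the data were seen, called it (-1.64, adjusted p = 1.55e-25), as 1 of 53 genes among 15322, or 0.346%. Without the batch 6 libraries the blocked edgeR value was -1.75 (adjusted p = 0.0761).

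The other IPhC and BC genes did not pass. *Matn4*, a matrix protein, was at 86.3 ± 8.63 RPM with CompE and 160 ± 52.7 RPM with DMSO at P0 (log2 fold change -0.94, adjusted p = 0.0402), and *Sox2*, a transcription factor of SCs and their progenitors, at 382 ± 29.0 and 653 ± 72.0 RPM (-0.81, adjusted p = 0.0104). *Rorb*, a nuclear receptor, was at 303 ± 40.9 RPM with CompE and 228 ± 59.0 RPM with DMSO (0.36, adjusted p = 0.561). Of the 5 genes in this list, 1 passed at P0, *Fabp7* itself.

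*Slc1a3* (ENSMUSG00000005360.14, chr15:8634124-8710764, minus strand), the glutamate transporter GLAST that clears transmitter around inner HCs, marks the same cells as *Fabp7*. It was at 327.0, 489.4, 434.0 and 418.8 RPM in DMSO at P0, and at 351.2, 489.7, 417.1 and 527.1 RPM with CompE. The 2 sets of libraries overlapped almost entirely. Its log2 fold change was 0.06 (SE 0.190, 95% interval -0.37 to 0.48, edgeR adjusted p = 0.951), an interval that leaves out a change of 2-fold in either direction. At P6 it was at 891.4, 906.5 and 407.4 RPM in DMSO and 774.4, 621.4 and 362.8 RPM with CompE, lower in 3 of 3 pairs, with a log2 fold change of -0.32 (SE 0.398, adjusted p = 1).

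In the list of glutamate uptake and turnover, 1 of 11 genes tested, *Slc1a3* included, passed at P0 and none was called higher. *Slc1a4*, which carries neutral amino acids, fell from 258 ± 26.0 to 89.0 ± 13.4 RPM (log2 fold change -1.57, adjusted p = 0.000646). In the fatty acid binding protein family, 3 of 10 genes had enough counts to be tested and *Fabp7* alone passed, while *Fabp3*, a muscle-type carrier, was at 6.87 ± 4.48 RPM in DMSO and 15.5 ± 3.98 RPM with CompE (1.13, adjusted p = 0.224).

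*Fabp7*, *Slc1a3* and *Ngfr* are also known from glia, so the glial markers stand beside them. None of the 8 glial markers passed at P0 or, of the 7 tested, at P6. Their sum was 124 to 249 RPM in DMSO and 154 to 457 RPM with CompE at P0, which is not lower with CompE. Most of it was *Egr2*, a transcription factor of myelinating cells, at 96.3 ± 67.6 and 171 ± 144 RPM, and *Mbp*, myelin basic protein, at 41.9 ± 8.33 and 54.5 ± 6.66 RPM. *Foxd3* and *Cdh19*, of immature Schwann cells, were at 0 in some libraries of both P6 groups.

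**Figure D2:**
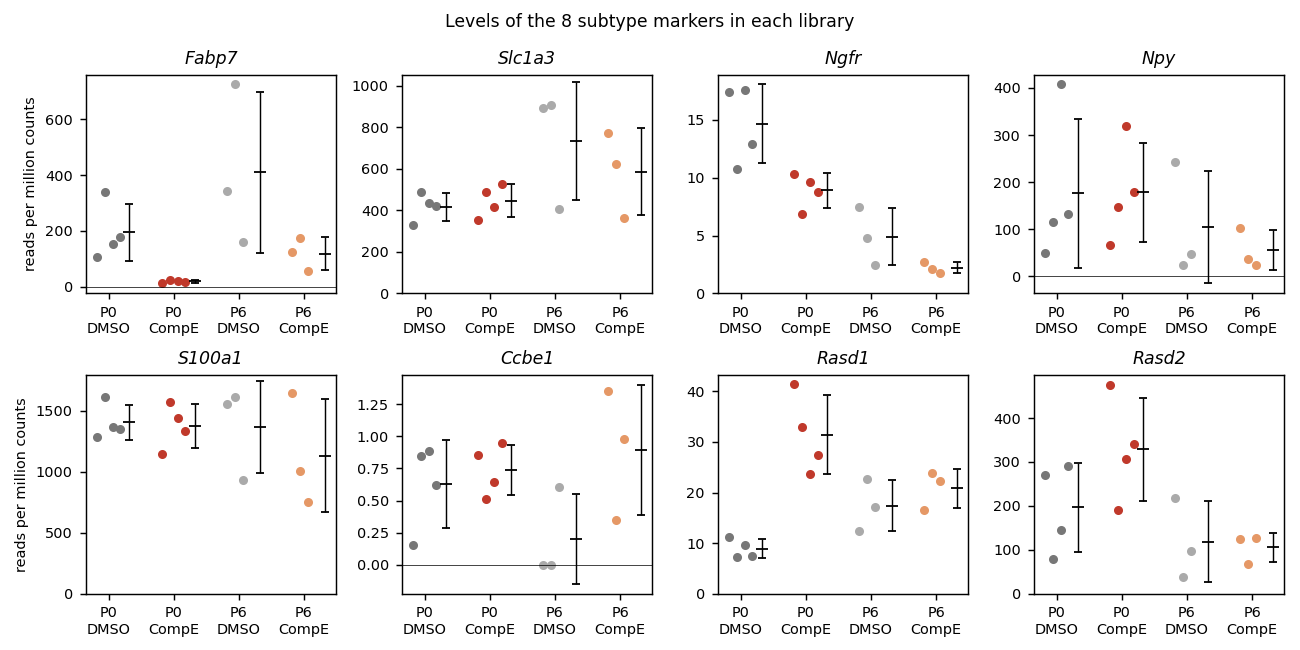
RPM of each marker in every library by group, with the mean and SD (n = 4 at P0, n = 3 at P6) as a black bar beside the points, which stand in order of replicate number. Fabp7 in CompE at P0 lies between 12.4 and 24.8 RPM, below all other libraries, and Rasd1 in DMSO at P0 lies between 7.31 and 11.2 RPM, below all other libraries.

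*Ngfr* (ENSMUSG00000000120.6, chr11:95568818-95587735, minus strand) encodes the p75 neurotrophin receptor, a marker of PCs in the early postnatal cochlea. In DMSO at P0 it was at 17.4, 10.7, 17.6 and 12.9 RPM, and with CompE at 10.4, 6.85, 9.65 and 8.78 RPM. The lowest DMSO library (10.71 RPM) lay just above the highest CompE library (10.35 RPM), and each pair was lower with CompE, by ratios of 0.548 to 0.678. The log2 fold change of -0.76 (SE 0.196, 95% interval -1.19 to -0.32) passed neither threshold (edgeR adjusted p = 0.0711). With the replicate block it was -0.75 (adjusted p = 0.0147). DESeq2 gave an adjusted p of 0.00609 at a size that is again under 2-fold.

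At P6, *Ngfr* was at 7.47, 4.79 and 2.48 RPM in DMSO and at 2.71, 2.13 and 1.79 RPM with CompE, from 49 to 179 counts a library. CompE was lower in 3 of 3 pairs, and the treatments overlapped. Its log2 fold change was -1.15 (SE 0.534, 95% interval -2.40 to 0.11, edgeR adjusted p = 1). None of the 11 genes tested at P0 among p75, its partners and its ligands passed. The most abundant were *Maged1*, which binds the receptor's intracellular part, at 484 ± 77.6 RPM in DMSO and 446 ± 42.8 RPM with CompE (-0.15, adjusted p = 0.66), and *Tnfrsf19*, a related receptor, at 187 ± 56.8 and 285 ± 48.0 RPM (0.56, adjusted p = 0.281).

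*Npy* (ENSMUSG00000029819.6, chr6:49822710-49829507, plus strand), which encodes neuropeptide Y and marks PCs, varied widely between libraries of one group, with a coefficient of variation of 89.7% in DMSO at P0. In DMSO at P0 it was at 49.5, 115.3, 407.4 and 133.4 RPM, and with CompE at 66.9, 147.1, 320.0 and 179.6 RPM. Replicate 1 was lowest and replicate 3 highest under both treatments, so the spread followed the pair and not the treatment. The log2 fold change was -0.03 (SE 0.626, 95% interval -1.43 to 1.36, adjusted p = 0.994), and 0.18 with the replicate block (SE 0.146, 95% interval -0.16 to 0.51, adjusted p = 0.578), which turns the direction of a value near 0. At P6 it was at 242.2, 24.6 and 47.4 RPM in DMSO and 103.4, 38.0 and 24.9 RPM with CompE. Here 2 of 3 pairs were lower with CompE, and the log2 fold change was -0.90 (SE 0.878, adjusted p = 1). Without DMSO replicate 1, the library at 242.2 RPM, the log2 fold change was 0.65. The receptors *Npy2r*, *Npy4r* and *Npy5r* were too low to be tested. The receptor *Npy1r* was tested at P0 and did not pass, at 5.21 ± 2.72 RPM in DMSO and 9.2 ± 2.68 RPM with CompE (0.78, edgeR adjusted p = 0.491). *Dpp4*, a peptidase that trims neuropeptide Y, was at 250 ± 15.9 RPM in DMSO and 286 ± 34.9 RPM with CompE at P0 (0.15, adjusted p = 0.711).

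Of the 8 genes in the PC list, 1 passed at P0, *Hey2*, a Notch-responsive repressor, which fell from 110 ± 17.9 to 50.4 ± 8.86 RPM (-1.17, adjusted p = 0.00835). *Tectb* was at 7866 ± 1214 RPM in DMSO and 13318 ± 338 RPM with CompE (0.72, adjusted p = 0.04), and *Fgfr3*, the receptor needed for PC fate, at 1571 ± 275 and 1771 ± 130 RPM (0.13, adjusted p = 0.846).

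*S100a1* (ENSMUSG00000044080.9, chr3:90511034-90514392, minus strand), an EF-hand calcium-binding protein of DCs and PCs, had the smallest spread of the members at P0, with a coefficient of variation of 10.2% in DMSO and 13.1% with CompE. It was at 1287, 1613, 1369 and 1353 RPM in DMSO at P0 and at 1145, 1569, 1442 and 1335 RPM with CompE. The libraries of both treatments covered the same range, with a log2 fold change of -0.07 (SE 0.157, 95% interval -0.42 to 0.28, edgeR adjusted p = 0.923). At P6 it was at 1551, 1610 and 933.4 RPM in DMSO and at 1642, 1001 and 751.0 RPM with CompE, a log2 fold change of -0.27 (SE 0.347, adjusted p = 1). The batch 6 library was lowest under either treatment, as it was for *Slc1a3* and *Fabp7*.

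In RefSeq the 5′ end of *S100a1* overlaps that of *S100a13* by 98 bases on the opposite strand, and use of strand in the counting is not given in the sources used here. *S100a13* was at 109 ± 27.0 RPM in DMSO and 194 ± 57.5 RPM with CompE at P0 (0.80, adjusted p = 0.189). None of the 11 genes of the S100 family tested passed at P0. In the DC list, 0 of 7 genes passed at P0 by edgeR and 2 with the replicate block, which were *Hes5*, a Notch target (-6.01, adjusted p = 0.00247), and *Pdzk1ip1*, a membrane-associated protein (-3.64, adjusted p = 9.44e-05). *Lgr5*, a Wnt co-receptor of DCs, was at 506 ± 62.1 RPM in DMSO and 617 ± 151 RPM with CompE (0.24, adjusted p = 0.666).

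**Figure D3:**
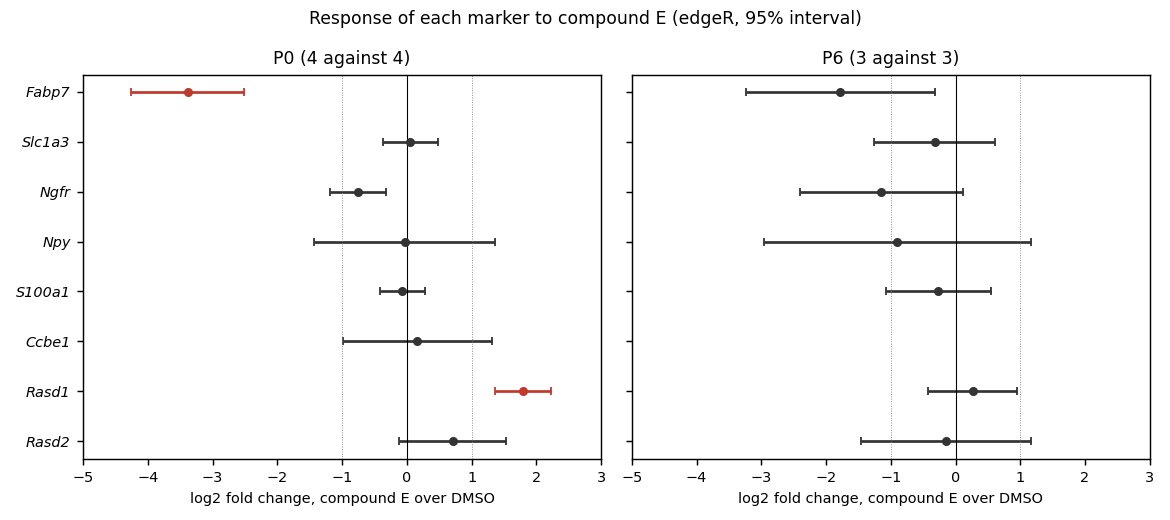
Log2 fold change of each marker with CompE over DMSO at P0 and at P6, with its 95% interval from edgeR and, in red, the members past the threshold (dotted lines mark 2-fold, and Ccbe1 at P6 is left out because 2 DMSO libraries hold 0 counts). Fabp7 at -3.38 and Rasd1 at 1.79, both at P0, are the only red points, and the P6 intervals are wider.

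Of the 3 genes listed for tDCs, *Rasd1* alone passed, as higher with CompE, at P0. The others are *Ccbe1* and *Rasd2*. The study names *Rasd2* as a late HC marker and reports it, from single-cell data, as largely unexpressed after 24 h of Notch inhibition. In the bulk libraries here, a different measure, *Rasd2* was at 79.1 to 290.3 RPM in DMSO and 190.0 to 476.0 RPM with CompE at P0. The legend of the figure that the study cites names *Rasd1* instead, as higher in tDCs. *Rasd1* (ENSMUSG00000049892.7, chr11:59963181-59964944, minus strand) encodes a small Ras-like GTPase first known as induced by dexamethasone. It was at 11.2, 7.31, 9.65 and 7.40 RPM in DMSO and at 41.5, 33.0, 23.7 and 27.5 RPM with CompE. Each CompE library was over the highest DMSO library, with ratios of 2.46 to 4.52 within pairs. This gave a log2 fold change of 1.79 (SE 0.193, 95% interval 1.36 to 2.22, edgeR adjusted p = 0.00101). It held without any single library and was lost without both libraries of replicate 2 (adjusted p = 0.0148) or of replicate 4 (0.0256).

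In RefSeq, *Rasd1* overlaps *Med9*, a subunit of the Mediator complex, by 126 bases. *Med9* was at 30.8 RPM in DMSO and 33.1 RPM with CompE at P0 (log2 fold change 0.07, adjusted p = 0.884). At P6, *Rasd1* was at 12.5, 22.7 and 17.1 RPM in DMSO and at 16.5, 23.8 and 22.2 RPM with CompE. It was higher with CompE in 3 of 3 pairs, by ratios of 1.05 to 1.32, and the treatments overlapped. The log2 fold change was 0.27 (SE 0.292, 95% interval -0.42 to 0.95, adjusted p = 1), so an increase as large as that estimated at P0 lies outside the interval.

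Of 10 glucocorticoid-induced genes tested at P0, 1 was called higher, *Rasd1*, and 1 lower, *Fkbp5*, a co-chaperone of the glucocorticoid receptor, which fell from 73.7 ± 29.6 to 21.3 ± 3.23 RPM (-1.84, adjusted p = 0.00551). *Sgk1*, a kinase, was at 175 ± 73.3 RPM in DMSO and 319 ± 56.4 RPM with CompE (0.82, adjusted p = 0.203), and *Dusp1*, a phosphatase, at 246 ± 80.9 and 336 ± 157 RPM (0.38, adjusted p = 0.73). Among 8 relatives and partners of Rasd proteins tested, *Rasd1* alone passed. The small GTPase gene *Rasl11b* was at 207 ± 28.7 RPM in DMSO and 238 ± 49.8 RPM with CompE (0.16, adjusted p = 0.748).

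*Rasd2* (ENSMUSG00000034472.13, chr8:75213944-75224113, plus strand), which encodes the related GTPase Rhes, was expressed at a higher level than *Rasd1* and did not pass. In DMSO at P0 it was at 271.4, 79.1, 144.6 and 290.3 RPM, and with CompE at 476.0, 190.0, 307.6 and 341.1 RPM. It was higher with CompE in 4 of 4 pairs, with ratios of 1.75, 2.40, 2.13 and 1.18, while the treatments overlapped. The log2 fold change was 0.71 (SE 0.371, 95% interval -0.12 to 1.53, edgeR adjusted p = 0.48), and 0.81 with the replicate block (SE 0.160, adjusted p = 0.0207). At P6 it was at 218.8, 37.5 and 97.8 RPM in DMSO and at 123.8, 67.9 and 126.2 RPM with CompE, higher in 2 of 3 pairs, with a log2 fold change of -0.14 (SE 0.561, adjusted p = 1) that became 0.15 with the block (adjusted p = 0.923).

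HC markers are given beside *Rasd2*. At P0 their sum, most of it *Myo6*, was 1748, 1141, 1303 and 1493 RPM with CompE and 821, 595, 841 and 1264 RPM with DMSO in replicates 1 to 4, so replicate 2 was lowest for both measures under either treatment. Of the 10 HC markers, 0 passed at P0 by edgeR and 2 with the replicate block (350 genes, or 2.20% of those tested, passed that fit). They were *Atoh1*, the transcription factor that starts HC fate (1.94, adjusted p = 0.000122), and *Pou4f3*, an HC survival factor (1.13, adjusted p = 0.00605). *Myo6*, a motor protein, was at 499 ± 163 RPM in DMSO and 862 ± 88.4 RPM with CompE, and *Otof*, of the HC synapse, at 82.0 ± 38.4 and 107 ± 27.5 RPM. A further 3, *Pvalb* (-0.46), *Espn* (-0.21) and *Cdh23* (-0.16), had log2 fold changes below 0. The part of HCs left in the sort in the level of *Rasd2* was not tested.

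*Ccbe1* (ENSMUSG00000046318.16, chr18:66045302-66302741, minus strand), a secreted protein that helps Adamts3 process Vegfc, was close to the limit of detection. It had 4, 34, 28 and 19 counts in DMSO and 38, 10, 22 and 30 counts with CompE at P0, no more than 0.947 RPM in any library, and was higher with CompE in 2 of 4 pairs, with a log2 fold change of 0.16 (SE 0.517, 95% interval -0.99 to 1.32, adjusted p = 0.948). At P6 it had 0, 0 and 25 counts in DMSO and 34, 10 and 27 counts with CompE, and no fold change is given.

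Of the 7 genes tested at P0 in its pathway list, *Ccbe1* included, 2 passed, both lower. *Adamts3*, the protease, fell from 21.8 ± 5.38 to 6.78 ± 1.66 RPM (-1.73, adjusted p = 0.00473), and *Vegfc*, the lymphatic growth factor, from 16.3 ± 3.69 to 5.89 ± 1.85 RPM (-1.49, adjusted p = 0.00834). *Nrp2*, a co-receptor, was at 18.9 ± 9.82 RPM in DMSO and 8.60 ± 2.81 RPM with CompE (-1.20, adjusted p = 0.28).

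**Figure D4:**
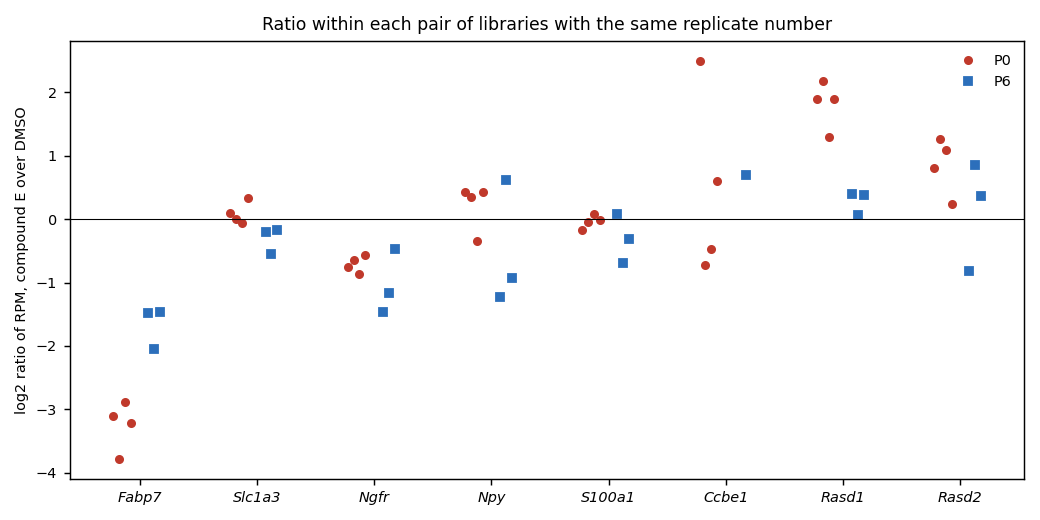
Log2 ratio of RPM, CompE over DMSO, within each pair of libraries of equal replicate number, as circles for the 4 pairs at P0 and squares for the 3 pairs at P6 (2 P6 pairs of Ccbe1 have 0 counts in DMSO and are not drawn). The P0 points of Fabp7 lie between -3.78 and -2.89 and its P6 points between -2.05 and -1.46, and Npy spreads to both sides of 0 at both ages.

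At P6, 0 of 8 members and 0 of 15322 genes passed by edgeR, which is 0% of those tested, with 289 genes at an unadjusted p under 0.05. DESeq2 called 11 genes, none of them a member, and with the replicate block 53 genes and 1 member, *Fabp7*. No member had treatments without overlap, against 7.19% of all genes. The P6 libraries differed more from each other, and edgeR put their biological coefficient of variation at 46.7%, where that of the P0 libraries was 27.2%. A list of 7 Notch target genes gives a measure of the inhibition. At P0, 5 of 7 passed, all lower, with a median log2 fold change of -2.70, against 0.01 for all genes, and 7 of 7 with the replicate block. *Nrarp*, a feedback inhibitor of Notch, fell from 450 ± 60.7 to 53.1 ± 15.4 RPM (-3.11, adjusted p = 0.000204), and *Heyl*, a Hey repressor, from 344 ± 84.2 to 34.2 ± 17.2 RPM (-3.36, adjusted p = 0.00128). *Hes1* (-2.70, adjusted p = 0.000652), a Hes repressor, and *Hey1* (-1.65, adjusted p = 0.000623) also fell. At P6 the median of the 7 was -1.61 and none passed.

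The remaining lists give the rest of the cell makeup. Of 8 markers of the epithelium on either side of the organ of Corti, 2 passed at P0, and *Nupr1*, a stress-response gene, fell from 54.5 ± 4.42 to 6.76 ± 3.13 RPM (-3.05, adjusted p = 0.00131) and *Crym*, a thyroid hormone-binding protein, from 49.0 ± 15.8 to 16.3 ± 3.63 RPM (-1.61, adjusted p = 0.00299). *Otoa*, which anchors the tectorial membrane, was at 104 ± 23.2 RPM in DMSO and 224 ± 33.4 RPM with CompE (1.06, adjusted p = 0.0212), *Tecta*, a tectorial membrane protein, at 2729 ± 915 and 2746 ± 483 RPM, and *Gata3*, a transcription factor, at 1513 ± 160 and 1779 ± 109 RPM. With the replicate as a block, 2 genes of this list passed as lower and 1 as higher, *Otoa* (1.08, edgeR adjusted p = 0.0012). None of the 6 neuron, 7 mesenchyme, 3 endothelium, 4 immune and 1 melanocyte and stria markers tested at P0 passed. Of the neuron markers, the neurofilament genes *Nefl* and *Nefm* were at 36.2 ± 10.9 and 26.5 ± 11.9 RPM in DMSO, and *Tubb3*, a neuronal tubulin, was at 1.56 ± 0.507 RPM and was called between ages (3.06, adjusted p = 0.000587). The matrix genes *Lum* and *Dcn* led the mesenchyme list at 754 ± 70.0 and 189 ± 18.8 RPM. *Emcn* and *Cdh5* of endothelium, *C1qb* and *Csf1r* of immune cells, and *Dct* and *Kcnq1* of melanocytes and stria had means of 0.144 to 2.69 RPM in the same libraries.

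Whether a response differed with age was tested as the P6 response minus the P0 response over all 14 libraries. No member and no gene of 17090 passed by edgeR (0%; 811 had an unadjusted p under 0.05), while DESeq2 called 34 genes and none of the members. For *Rasd1* the difference was -1.51 (SE 0.348, 95% interval -2.25 to -0.76, adjusted p = 0.32), and -1.47 with the replicate block (adjusted p = 0.0364). For *Fabp7* it was 1.62 (SE 0.743, 95% interval 0.02 to 3.21, adjusted p = 1), and 1.64 with the block (adjusted p = 0.019). The blocked edgeR fit called 16 genes, or 0.0936%, and neither of these. DESeq2 with the block called both, at 1.64 (adjusted p = 1.74e-09) and -1.47 (adjusted p = 1.21e-05), among 182 genes or 1.06%. The intervals of the other members, *Ccbe1* left aside, held 0 in the fit without the block.

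In DMSO alone, 2 of 8 members differed between P6 and P0, against 7.13% of 17090 genes (640 higher and 578 lower at P6). *Ngfr* fell from 14.7 ± 3.42 RPM at P0 (n = 4) to 4.91 ± 2.50 RPM at P6 (n = 3), a log2 fold change of -1.50 (SE 0.340, edgeR adjusted p = 0.00672). *Rasd1* rose from 8.88 ± 1.87 to 17.4 ± 5.10 RPM (1.06, SE 0.244, adjusted p = 0.00738). These were the 2 members whose ages did not overlap in DMSO, against 31.1% of all genes. Both calls lay near the threshold. *Ngfr* lost it without any one of 7 of the 14 libraries (P0 CompE 3 and 4, P0 DMSO 1, 3 and 4, P6 DMSO 2 and 3) and *Rasd1* without any one of 8 (P0 CompE 2 and 4, each P0 DMSO library, P6 DMSO 2 and 3), with adjusted p up to 0.0249 and 0.0456. No batch held both ages, so age and batch cannot be told apart.

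*Fabp7* was at 194.5 ± 100.9 RPM at P0 and 409.6 ± 287.0 RPM at P6 in DMSO (1.16, adjusted p = 0.125), and *Slc1a3* at 417.3 ± 67.4 and 735.1 ± 283.9 RPM (0.89, adjusted p = 0.0527), so neither passed. *S100a1* differed by 0.03 (SE 0.263, 95% interval -0.53 to 0.60, adjusted p = 0.939), *Npy* by -0.72 (adjusted p = 0.566) and *Rasd2* by -0.66 (adjusted p = 0.377). The lists around them shifted unequally. In the DC list 3 of 7 genes were lower at P6 and none higher, with a median log2 fold change of -1.84 against -0.05 for all genes, and *Hes5* (-5.71), *Pdzk1ip1* (-4.60) and *Lgr5* (-1.84) were those called. Of the 5 IPhC and BC genes, *Rorb* rose (1.01, adjusted p = 0.00531) and *Matn4* (-4.07, adjusted p = 0.00071) and *Sox2* (-1.37, adjusted p = 0.00169) fell. In the PC list *Tectb* rose (1.11, adjusted p = 0.0016) and *Ngfr* fell. *Tectb* was the only one of its 8 genes above 0, and 7 were below 0, with a median of -1.16.

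Genes of the lists around the members changed with age as well. *S100a11*, a calcium-binding relative of *S100a1*, rose from 42.5 ± 7.90 to 141 ± 15.4 RPM (1.79, adjusted p = 3.96e-05), and 11 of 11 S100 genes tested had a value above 0. *Slc1a4* fell (-1.96, adjusted p = 0.00083), as did *Vegfc* (-2.80, adjusted p = 0.00181), *Adamts14*, a protease related to Adamts3 (-1.56, adjusted p = 0.00289), *Fkbp5* (-2.02, adjusted p = 0.000648) and *Dusp1* (-1.90, adjusted p = 0.0012). *Klf9*, a hormone-induced transcription factor, rose (1.30, adjusted p = 0.00279). *Pyy*, peptide YY, a relative of *Npy*, rose (5.40, adjusted p = 0.00143) to a low level, 3.08 ± 1.52 RPM. The connexin genes of SCs, *Gjb2* (1.12, adjusted p = 0.00131) and *Gjb6* (1.83, adjusted p = 8.53e-05), rose, and *Jag1*, a Notch ligand, fell (-1.74, adjusted p = 0.00705). *Atoh1* (-2.97, adjusted p = 0.00171), *Egr2* (-2.68, adjusted p = 0.00873) and *Crym* (-3.16, adjusted p = 6.99e-05) were lower at P6 too, and *Otoa* was higher (1.80, adjusted p = 0.000569).

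The genes most like each member were found by Pearson's r of log2(RPM + 1) over the 14 libraries, after each age was centred on its own mean, among the 9988 genes whose mean reached 10 RPM. These values describe libraries that share treatments and batches, and carry no test. *Fabp7* was most like *Heyl* (0.98), *Prdm12* (0.98) and *Vill* (0.97). *Slc1a3* was most like *Gemin4* (0.91), *Tspan18* (0.90) and *S100a1* (0.90), and *S100a1* most like *Rpl31* (0.96), *Sept6* (0.94) and *Uchl1* (0.92). Some of these rested more on the P6 libraries, with 0.43 within P0 and 0.98 within P6 for *S100a1* and *Uchl1*, and 0.68 and 0.94 for *S100a1* and *Slc1a3*. *Npy* was most like *Slc24a3* (0.89), *Fscn1* (0.89) and *Rhobtb2* (0.87). *Rasd1* was most like *Padi2* (0.95), *Stoml2* (0.94) and *Scd1* (0.94), of which *Stoml2* was at 0.98 within P0 and 0.17 within P6. *Rasd2* was most like *Eml1* (0.94), *Aacs* (0.92) and *Prkd2* (0.91). *Ngfr* and *Ccbe1* had a mean under 10 RPM and were not compared.

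Both IPhC markers differed in this respect. *Fabp7* and *Slc1a3* had an r of 0.36 with each other, while *Slc1a3* and *S100a1* had 0.90, and *Fabp7* and *Rasd1* had -0.82. The 2 Rasd genes had an r of 0.29. In the plot against summed marker lists, *Fabp7* and the Notch target genes were low together in the CompE libraries of each age, and *Fabp7* stood higher at P6 for a like sum. The largest part of the Notch target sum in each group was *Lfng*, the gene of the sorting reporter, at group means of 907 to 2791 RPM. At P0 the Notch target sum was 1069 to 1571 RPM with CompE and 3681 to 6240 RPM with DMSO, and at P6 it was 777 to 1597 RPM and 1724 to 3510 RPM.

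**Figure D5:**
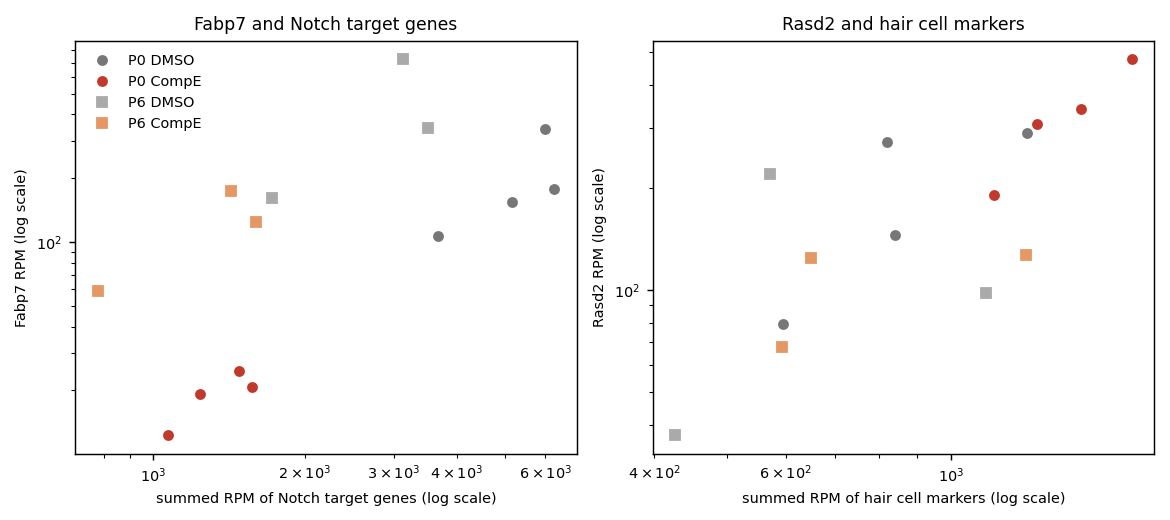
Fabp7 RPM against the summed RPM of 7 Notch target genes (left) and Rasd2 RPM against the summed RPM of 10 hair cell markers (right), on log axes, with each point a library. The CompE libraries at P0 form the group at the lower left of the Fabp7 panel, between 12.4 and 24.8 RPM, and the P0 library with the highest Rasd2 level, 476.0 RPM, has the highest hair cell sum, 1748 RPM.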

How the data were processed

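Poly(A) RNA of GFP-positive cells sorted from cultured Lfng-EGFP cochleae was made into 14 libraries from 0.5–1 ng of RNA (SMART-Seq v4 PLUS, no molecular identifiers). Per the labels and the study's methods, the authors trimmed reads (Trim Galore 0.6.0, cutadapt 1.15) and aligned them to mm10 (GRCm38) with STAR, version 2.7.0f in the submitters' processing notes. Which annotation was used, and whether strand was, is not given in the sources used here. The deposited values are raw counts per gene, of which 90.3% of 35976 symbols matched RefSeq. The authors' own comparisons were not used.

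Counts were tested with edgeR 4.0.16 (TMM, filterByExpr with a minimum count of 10, quasi-likelihood F test) in R 4.3.3, fitted on all genes with Benjamini-Hochberg adjustment over all genes tested. Genes were called at 2-fold or more with an adjusted p no higher than 0.01. CompE was compared with DMSO in the 8 P0 and in the 6 P6 libraries, and the difference of responses and the ages in DMSO in all 14. SE is the log2 fold change divided by the root of F. DESeq2 1.42.0 was an alternative. Simulated data were used to test only the comparison of treatments within each age. This was done for edgeR, with and without the replicate block, and for DESeq2 without it. The labels give replicate numbers shared by treatments and 6 batches, so each pair lies within a batch. At P0, replicates 3 and 4 share batch 3, and these pairs were not left out together. Deviations from the group mean of same-numbered libraries correlated at 0.498, 0.244, 0.361 and 0.162 at P0 and at 0.265, 0.325 and 0.620 at P6, all over 0.1, and the numbers were taken to pair the libraries. Libraries of one group differed well beyond counting error (chi-square over its degrees of freedom was 19.0 or more for each pair of libraries), and each was counted as 1 sample. Repeat preparations of one RNA could also exceed that error. Nothing in the labels says that replicates were separate litters, and p-values measure the spread between these libraries. The libraries held 19415066 to 44430063 counts.

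The members and lists were chosen with earlier results of these data known. Of each list, the text names the genes called in one of the 4 comparisons (the 4 largest if more) and the 2 with the highest mean RPM. *Pou4f3*, *Pvalb*, *Espn*, *Cdh23*, *Med9*, *Foxd3*, *Cdh19* and the neuropeptide Y receptors lie outside this rule and were named after their values were seen. A gene that the rule names is not reported here.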

Additional observations from a re-analysis of the deposited data

Results flagged for a closer look

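The response of *Fabp7* and that of *Rasd1* to CompE differed between P6 and P0 in one of the fits of the difference, DESeq2 with the replicate as a block. The P6 minus P0 value was 1.64 on the log2 scale for *Fabp7*, which fell in 4 of 4 pairs at P0 and was lower in 3 of 3 pairs at P6, and -1.47 for *Rasd1*, which was higher in 4 of 4 and 3 of 3 pairs. The edgeR fits, with and without the block, called neither. No library stood apart from its group by Dixon's test in the 16 groups of 4 values examined, in which chance alone flags about 1 in 20.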

How the results depend on the processing

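With adjusted p of at most 0.05 and no fold threshold, DESeq2, DESeq2 with the replicate block, the replicate block, the batch block and all 14 libraries in one fit, genes called at P0 went from 195 to 617, 425, 524, 350, 334 and 117, and the same 2 of 8 members were called in each. Leaving out 1 library or 1 pair gave 1 to 225 genes and 0 to 2 members. The single libraries that moved the count most were CompE replicates 3 (80) and 4 (84) and DMSO replicates 2 (111) and 4 (113), and leaving out both libraries of replicate 4 gave 1 gene and 0 members. At P6, DESeq2 called 11 genes and 0 members, and DESeq2 with the replicate block 53 genes and 1 member. For the difference of the responses, the settings in that order without the last gave 2, 34, 182, 16 and 15 genes, with 2 members under DESeq2 with the replicate block and 0 under the others, no filter on low counts gave 1, edgeR's newer quasi-likelihood method, added after the data were seen, 2, and leaving out libraries 0 to 2. Between ages, 1218 genes became 3840 with the looser threshold and 1918 with DESeq2, 667 to 1281 when libraries were left out (804 without P6 DMSO replicate 2), with 0 to 2 members called.

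Some values of members turned direction, and not all of these were near 0. In the main fit, *Npy* was at -0.90 at P6, -0.84 for the difference of the responses and -0.72 between ages. *Npy* at P0 was at 0.18 with the replicate block, 0.0937 with the batch block and 0.18 with DESeq2 and the replicate block, and *Rasd2* at P6 at 0.15, 0.15 and 0.16 in the same fits and 0.0205 with the replicate block and no batch 6 libraries. When libraries were left out, the log2 fold change at P0 ranged from -0.0701 to 0.17 for *Slc1a3*, -0.48 to 0.81 for *Npy*, -0.16 to 0.0258 for *S100a1* and -0.20 to 0.47 for *Ccbe1*. At P6 it ranged from -1.69 to 0.65 for *Npy* and -0.56 to 0.67 for *Rasd2*. The difference of the responses ranged from -0.72 to 0.0428 for *Ngfr*, -1.70 to 0.69 for *Npy* and -0.53 to 0.0599 for *S100a1*, and that between ages from -2.26 to 0.14 for *Npy* and -0.14 to 0.28 for *S100a1*. The *Npy* values of 0.65 at P6 and 0.69 for the difference were both without P6 DMSO replicate 1. That of 0.14 between ages was without P0 DMSO replicate 3. The cause of these turns was not tested. *Fabp7*, and *Rasd1* at P0, kept their direction in every setting run. The replicate block changed no call of a member by edgeR. *Ccbe1*, with at most 38 counts, is limited by depth, and its fold changes at P6 and between ages are not given because of libraries at 0 counts. Mean RPM with TMM library sizes stayed within 1 SD for 32 of 32 member and group values.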
